A study of Mus musculus with 12 samples.

Results

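RNA sensors and interferon regulatory factors (IRFs) were examined in mouse mesenchymal stromal cells (MSCs) as 10 genes, namely Ddx58 (also named Rigi), Ifih1, Dhx58, Tlr3, Mavs, Irf1, Irf2, Irf3, Irf7 and Irf9. They were chosen by name among the 55487 Ensembl genes of the deposited count table, whatever their counts. All 10 passed the filter on low counts and belong to the 11314 protein-coding genes that were tested. The filter asked for a set level in any 4 samples, which Irf7 reached in all 4 control samples but in only 2 samples of each treated group. The study asked how A1, an endosome-disrupting molecule made of cholic acid and a nuclear localization peptide of hnRNPA1, changes the transcriptome of MSCs that it turns into antigen-presenting cells. Poly(A) RNA was sequenced in 3 groups of 4 samples.

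The Negative group (control MSCs) was untreated. The A1 group received 50 μM A1 for 6 h, and the A1-OVA group (A1 + OVA) received 50 μM A1 with 1 mg/ml ovalbumin, a model antigen, for 6 h. All groups were primary wild-type C57BL/6 cells, which the study's methods trace to the femoral marrow of female mice aged 6 to 8 weeks, expanded by plastic adherence and kept in medium with fetal bovine serum. The label of the A1-OVA medium also names insulin, without an amount. If insulin was in that medium only, its part and that of ovalbumin cannot be told apart. None of the groups received ovalbumin alone, so that A1-OVA can be compared with A1 and with control but ovalbumin has no control of its own. Nothing states whether the 4 samples of a group came from separate mice or cultures, and p-values then measure only the spread between these samples.

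Cells detect foreign RNA by receptors of the cytosol and of the endosome. RIG-I (Ddx58) and MDA5 (Ifih1) are cytosolic helicases that bind viral RNA and signal through the mitochondrial adaptor MAVS, LGP2 (Dhx58) binds RNA without a signaling domain and tunes both, and TLR3 binds double-stranded RNA in endosomes and signals through TICAM1 (TRIF). Both routes end on the kinases TBK1 and IKKε, which phosphorylate IRF3 and IRF7 and so switch on type I interferons. Secreted interferon then acts through its receptor and the complex ISGF3, which holds STAT2 and IRF9 and raises the transcription of many sensors again, while IRF1 drives antiviral and antigen presentation genes and IRF2 competes with it. In MSCs these genes are known to respond to interferon and to RNA, and they are of interest here because A1 opens endosomes to the cytosol.

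The sequences below were taken from the promoter windows of RefSeq (GRCm38.p6, 250 bases before to 50 after the RefSeq start of the gene). They are shown because they carry letters by which interferon-activated factors are known to bind some of these genes or, in Tlr3, only letters bound by NF-κB. A window was found for 9 of the 10 genes, all but Dhx58, with 11 windows in all since Irf1 and Irf9 have a pair each. Windows were searched on both strands for GAAA and GAAA with any 2 bases between them, the interferon-stimulated response element (ISRE) bound by IRFs and ISGF3, for TTC and GAA with any 3 bases between them, the gamma-activated site (GAS) of interferon signaling, and for GGGA and TTTCC with any 1 base between them, bound by NF-κB. Among all 32851 windows of the table, 3.44% held the ISRE letters, 8.30% the GAS letters and 0.411% the NF-κB letters. Capitals mark the matching letters, and each sequence reads 5′ to 3′ along the gene.
Ddx58, chr4:40239804-40239833, minus strand: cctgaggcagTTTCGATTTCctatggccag
Ifih1, chr2:62646206-62646233, minus strand: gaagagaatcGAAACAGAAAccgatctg
Irf2, chr8:46739495-46739554, plus strand: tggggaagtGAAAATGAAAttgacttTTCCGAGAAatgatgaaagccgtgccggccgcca
Irf1, chr11:53769899-53769957, plus strand: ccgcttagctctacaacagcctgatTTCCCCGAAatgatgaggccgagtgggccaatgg
Tlr3, chr8:45410557-45410616, minus strand: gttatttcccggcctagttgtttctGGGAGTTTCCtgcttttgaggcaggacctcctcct

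In Ddx58 the ISRE letters lie on the opposite strand, from base 3 to 12 of the gene. In Ifih1 they lie on the strand of the gene, from base 33 to 42. Irf2 holds an ISRE match from base -241 to -232 and, apart from it, a GAS match from -224 to -216, counted from the start. The GAS match of Irf1 lies from -90 to -82, and the NF-κB match of Tlr3 from -211 to -202. No match lies in these windows of Mavs, Irf3, Irf7 and Irf9. Bases are counted from the RefSeq start, which can differ from the start of the gene coordinates given below. The Tlr3 window, from 45410331 to 45410630, lies inside the gene, which extends to 45411080 on the minus strand. Both Irf9 windows, from 55603735 and 55604329, begin after the Irf9 start at 55603571, so that no sequence before that start was searched. The matches are letters in a window, and no binding was measured.

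Levels between genes were compared per length, as normalized CPM (counts scaled to a common library total) divided by the length of the merged exons in kilobases. Mavs was the highest of the 10 genes in control MSCs with 9.53 ± 0.753 CPM per kb (SD, n = 4), and Irf1 followed with 7.64 ± 0.392, Irf3 with 7.06 ± 0.545 and Irf2 with 6.03 ± 0.395 CPM per kb (SD, n = 4 each). The sensors Ddx58 and Ifih1 had 5.17 ± 0.199 and 3.44 ± 0.148 CPM per kb (SD, n = 4 each). Irf9 had 2.46 ± 0.313 and Tlr3 1.48 ± 0.0901 CPM per kb (SD, n = 4 each). Dhx58, with 0.487 ± 0.0721, and Irf7, with 0.385 ± 0.0542 CPM per kb (SD, n = 4 each), were the lowest. Neighbors in this order had overlapping control samples for Irf1 and Irf3, for Irf3 and Irf2, and for Dhx58 and Irf7, and the other neighbors were apart in all 4 control samples. The lowest Irf2 sample, at 5.46 CPM per kb, was close to the highest Ddx58 sample at 5.43. Mavs kept the first, Irf2 the fourth, Ddx58 the fifth, Tlr3 the eighth, Dhx58 the ninth and Irf7 the last place by the mean in all 3 groups.

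**Figure D1:**
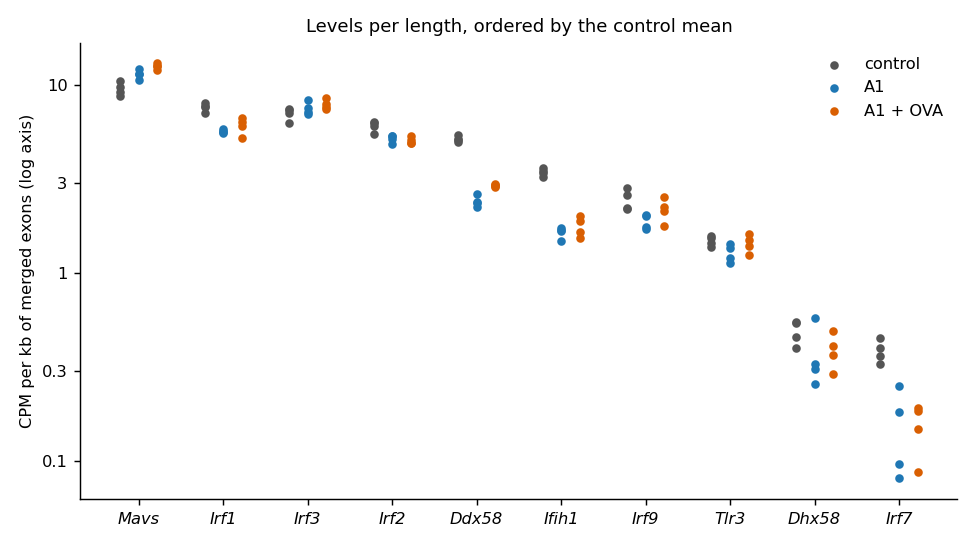
Levels per length of the 10 genes (vertical log axis, CPM per kb of merged exons) for the 4 control, 4 A1 and 4 A1 + OVA samples, each point a sample, in the order of the control means. Mavs is on top in each group, and Dhx58 and Irf7 lie under 1 CPM per kb in all 12 samples.

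A1 lowered 6 of the 10 genes against control MSCs and raised 1 (edgeR adjusted p-value under 0.05), and 3 did not pass. Across all tested genes, 62.7% passed in this comparison, 31.1% as lower and 31.7% as higher. A share of 7 in 10 is close to this background. No direction is read from the 6 lower genes. They include Irf7, and all 10 genes were chosen with earlier results of these data known. Genes lower by at least 0.5 on the log2 scale made up 11.6% of all tested genes and 3 of the 10 (Ddx58, Ifih1 and Irf7, of which Irf7 was at low counts and met the filter mainly in control samples), and genes higher by as much 9.41% and 0 of the 10. The median log2 fold change was -0.40 over the 10 genes and -0.00 over all tested genes. All 4 A1 samples lay on 1 side of all 4 control samples for 7 of the 10 genes, and for 54.4% of all tested genes. With A1 + OVA, 5 were lower, Irf7 again among them, and 2 were higher than in control MSCs. The backgrounds were 27.9% lower and 29.7% higher, and the median log2 fold change of the 10 genes was -0.28. The same 3 genes were lower by at least 0.5 (8.79% of all tested genes) and 0 were higher by as much (8.92%), and 7 of the 10 did not overlap control (49.4%). Both comparisons use the same control samples. In a bulk sample, fewer cells that express a gene and less RNA of it per cell cannot be told apart.

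**Figure D2:**
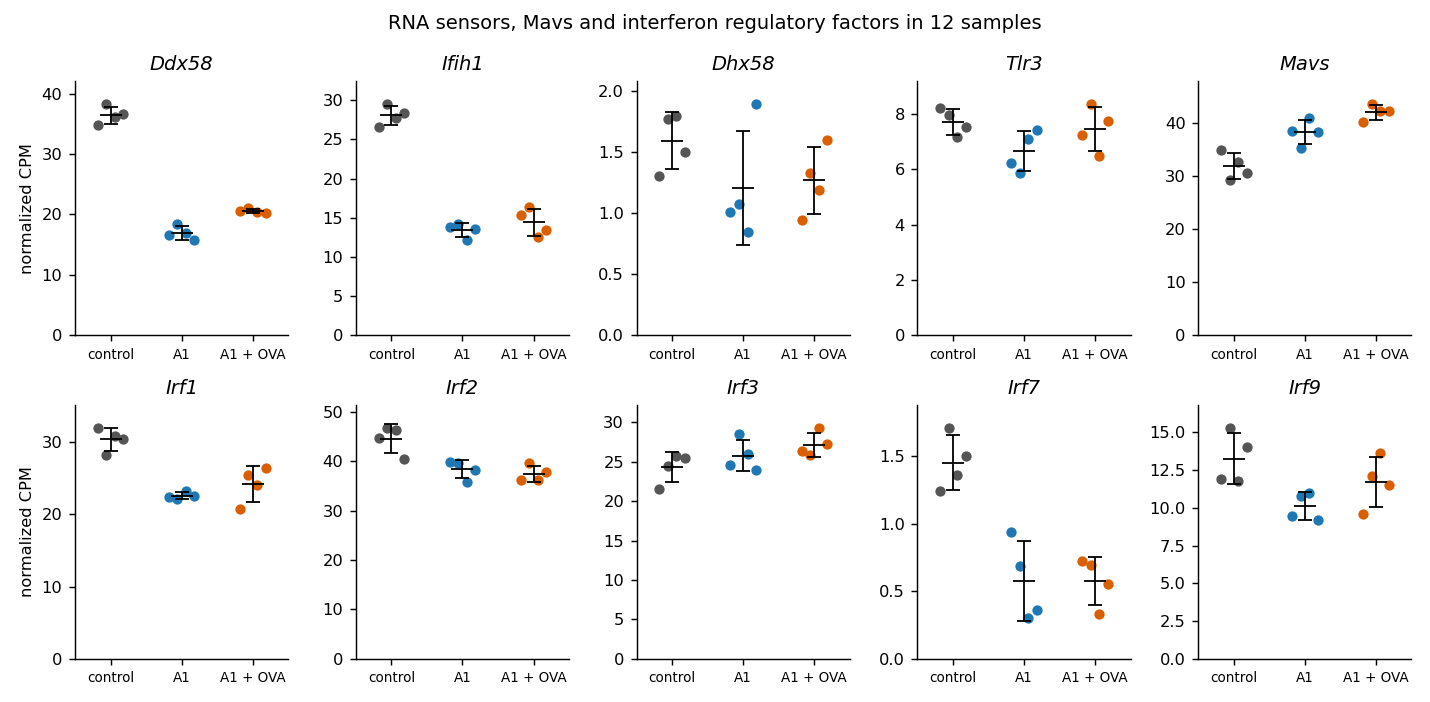
Normalized CPM (vertical axis, starting at 0) of each gene in control, A1 and A1 + OVA samples, with each point a sample, the short line the mean and the bar the SD of 4 samples. Ddx58, Ifih1 and Irf7 show the treated samples of both groups well under the control samples, and Mavs shows them above.

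The cytosolic sensors Ddx58 and Ifih1 fell to about the same degree. Ddx58 (ENSMUSG00000040296, GRCm38 chromosome 4 from 40203773 to 40239828) had 34.9, 38.3, 36.1 and 36.6 CPM in the control samples, 16.6, 18.5, 16.9 and 15.8 CPM with A1, and 20.6, 21, 20.4 and 20.2 CPM with A1 + OVA. All 3 groups were apart, with control samples highest and A1 samples lowest. Expression with A1 was 0.464 times that of control, a log2 fold change of -1.11 (standard error 0.06, edgeR adjusted p = 6.41e-13), and with A1 + OVA 0.563 times, a log2 fold change of -0.83 (standard error 0.06, edgeR adjusted p = 4.13e-11). Ifih1 (ENSMUSG00000026896, chromosome 2 from 62595798 to 62646255) had 26.6, 29.5, 27.7 and 28.4 CPM in control samples, 13.8, 14.2, 12.1 and 13.6 CPM with A1, and 15.4, 16.3, 12.5 and 13.4 CPM with A1 + OVA. Here the treated groups overlapped each other and both stayed under every control sample. Its log2 fold change was -1.06 with A1 (standard error 0.08, edgeR adjusted p = 1.15e-10) and -0.96 with A1 + OVA (standard error 0.08, edgeR adjusted p = 3.91e-10).

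Dhx58 and Tlr3 did not pass the test in either comparison with control. Dhx58 (chromosome 11 from 100694884 to 100704271), the regulator of both helicases, was counted only 11 to 30 times in a sample. It had 1.30 to 1.79 CPM in control samples, 1.01, 1.07, 0.84 and 1.89 CPM with A1 and 0.942 to 1.60 CPM with A1 + OVA. A1 replicate 4 was above all control samples while the other 3 were below them. The log2 fold change with A1 was -0.40, with a 95% interval from -0.91 to 0.11 (edgeR adjusted p = 0.161). Without that sample it was -0.71 (edgeR adjusted p = 0.0183), so that 1 library decides this call. Tlr3 (chromosome 8 from 45395665 to 45411080), the endosomal receptor, had 8.23, 7.98, 7.18 and 7.52 CPM in control samples, 6.22, 5.88, 7.10 and 7.41 CPM with A1 and 7.25, 8.36, 6.47 and 7.76 CPM with A1 + OVA, with overlapping groups. Its log2 fold change was -0.22 with A1 (95% interval -0.44 to 0.00, edgeR adjusted p = 0.0811) and -0.05 with A1 + OVA (95% interval -0.26 to 0.16, edgeR adjusted p = 0.702). Without A1 replicate 4 the first of these was -0.28 (edgeR adjusted p = 0.0439). It did not pass in the other 11 refits with 1 sample left out, and all these values lay between -0.28 and -0.16.

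Mavs, the adaptor on which both helicases signal, rose. Mavs (ENSMUSG00000037523, chromosome 2 from 131234063 to 131248025) had 35, 29.3, 32.7 and 30.6 CPM in control samples, 38.5, 35.4, 40.9 and 38.3 CPM with A1, and 40.2, 43.6, 42.3 and 42.3 CPM with A1 + OVA. The lowest A1 sample was just above the highest control sample, and the A1 + OVA samples were further from control. The log2 fold change was 0.26 with A1 (standard error 0.06, edgeR adjusted p = 0.000706) and 0.40 with A1 + OVA (standard error 0.06, edgeR adjusted p = 5.43e-06).

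Among the IRFs, Irf7, the factor that amplifies interferon production once induced, had the largest fold change and the fewest counts. Irf7 (ENSMUSG00000025498, chromosome 7 from 141262706 to 141266481) was counted 20 to 29 times in control samples and 4 to 13 times in treated samples. It had 1.24, 1.71, 1.36 and 1.5 CPM in control samples, 0.94, 0.687, 0.305 and 0.363 CPM with A1, and 0.725, 0.696, 0.33 and 0.555 CPM with A1 + OVA. Every treated sample was under every control sample, and the treated groups overlapped. Since it met the filter mainly where it was high, these values describe the samples and its call is no support for a direction of the 10 genes. The log2 fold change was -1.33 in both comparisons, with 95% intervals from -1.94 to -0.71 with A1 (edgeR adjusted p = 0.000532) and from -1.92 to -0.74 with A1 + OVA (edgeR adjusted p = 0.000408). Irf3 (chromosome 7 from 44997648 to 45002848), which is made constitutively and activated by phosphorylation, had 21.6 to 25.7 CPM in control samples, 24 to 28.5 CPM with A1 and 25.8 to 29.3 CPM with A1 + OVA. Its log2 fold change was 0.08 with A1 (95% interval -0.06 to 0.23, edgeR adjusted p = 0.312). With A1 + OVA it was 0.16 (95% interval 0.02 to 0.30, edgeR adjusted p = 0.0488), a call at the edge of the threshold that 14 of 20 alternative settings did not keep. Leaving out any 1 of 7 libraries lost it, namely A1 replicate 1, 3 or 4 (edgeR adjusted p = 0.0696, 0.0725 and 0.066), A1 + OVA replicate 3 or 4 (0.154 and 0.0778) and control replicate 1 or 2 (0.17 and 0.0704).

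The antagonists Irf1 and Irf2 were both lower in the treated cells. Irf1 (ENSMUSG00000018899, chromosome 11 from 53770014 to 53778374) had 32.0, 28.3, 30.8 and 30.5 CPM in control samples, 22.4, 22.2, 23.3 and 22.5 CPM with A1 and 20.8, 25.4, 24.1 and 26.5 CPM with A1 + OVA. The A1 samples lay close together, with an SD of 0.467 CPM, inside the wider range of the A1 + OVA samples, and all 8 were under the control samples. The log2 fold change was -0.43 with A1 (standard error 0.07, edgeR adjusted p = 1.34e-05) and -0.32 with A1 + OVA (standard error 0.07, edgeR adjusted p = 0.000255). Irf2 (ENSMUSG00000031627, chromosome 8 from 46739732 to 46847458) had 44.8, 46.8, 46.3 and 40.4 CPM in control samples, 39.8, 39.7, 35.9 and 38.3 CPM with A1 and 36.2, 39.6, 36.3 and 37.8 CPM with A1 + OVA. Control replicate 4 was close to the treated ones, and no groups of control and treated samples overlapped. Its log2 fold changes were -0.21 (standard error 0.06, edgeR adjusted p = 0.00236) and -0.25 (standard error 0.06, edgeR adjusted p = 0.000591).

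Irf9, the DNA-binding subunit of ISGF3, fell with A1 and did not pass with A1 + OVA. Irf9 (ENSMUSG00000002325, chromosome 14 from 55603571 to 55610030) had 11.9, 15.3, 11.8 and 14 CPM in control samples, 9.47, 10.8, 11 and 9.22 CPM with A1 and 9.57, 12.1, 13.6 and 11.5 CPM with A1 + OVA. The A1 samples were all below the control samples, while the A1 + OVA samples overlapped both groups. The log2 fold change was -0.39 with A1 (standard error 0.11, edgeR adjusted p = 0.00331) and -0.18 with A1 + OVA (95% interval -0.39 to 0.04, edgeR adjusted p = 0.145). Without A1 + OVA replicate 3 the latter was -0.26 (edgeR adjusted p = 0.0467). It did not pass in the other 11 refits with 1 sample left out, and all these values lay between -0.26 and -0.10. In the annotation, 123 bases of Irf9 overlap Rnf31 on the same strand, and how reads there were assigned is not given in the sources used here.

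**Figure D3:**
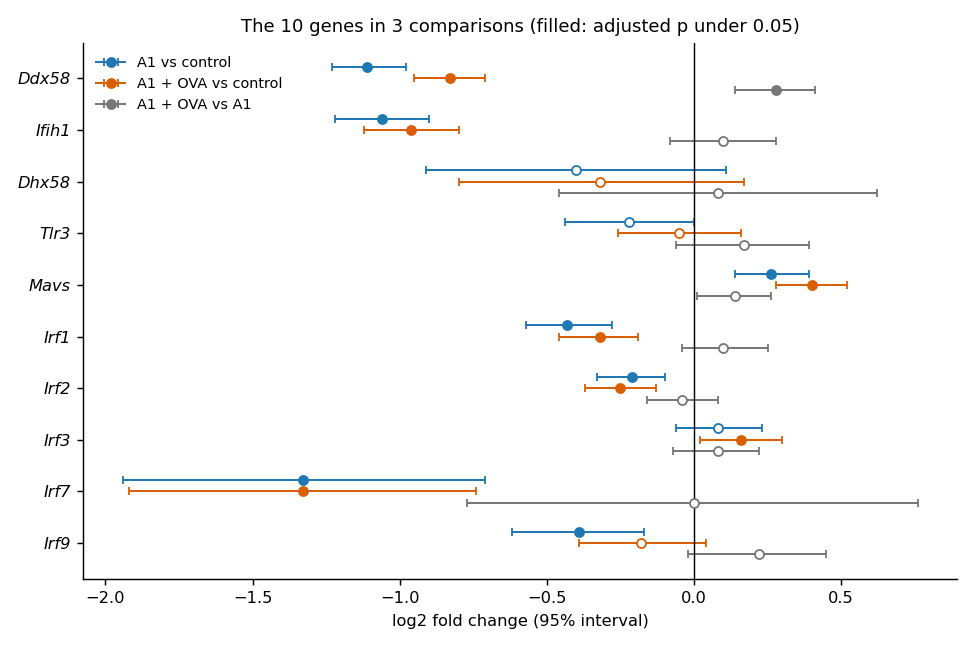
Log2 fold changes (horizontal axis) of the 10 genes in the 3 comparisons, with 95% intervals from edgeR's fit and filled points for an adjusted p-value under 0.05. Ddx58, Ifih1 and Irf7 lie below -0.5 in both comparisons with control, Mavs lies above 0 in both, and Ddx58 is the 1 filled point for A1 + OVA against A1.

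Compared directly, A1 + OVA and A1 differed in 1 of the 10 genes, while 12.9% of all tested genes passed in this comparison, 6.81% as lower and 6.05% as higher with A1 + OVA. None of the 10 differed by 0.5 or more, against 0.433% of all tested genes lower and 0.769% higher by as much, and 1 of the 10 had groups that did not overlap, against 18.1%. That gene was Ddx58, which was 1.21 times higher with A1 + OVA than with A1, a log2 difference of 0.28 (standard error 0.06, 95% interval 0.14 to 0.41, edgeR adjusted p = 0.00654), and was still under control in all 4 samples. The difference was 0.10 for Ifih1 (95% interval -0.08 to 0.28), 0.14 for Mavs (0.01 to 0.26, edgeR adjusted p = 0.132), 0.10 for Irf1 (-0.04 to 0.25), -0.04 for Irf2 (-0.16 to 0.08), 0.08 for Irf3 (-0.07 to 0.22) and 0.22 for Irf9 (-0.02 to 0.45, edgeR adjusted p = 0.216). For Tlr3 the interval was -0.06 to 0.39. The intervals of Dhx58, from -0.46 to 0.62, and of Irf7, from -0.77 to 0.76, were the widest, and leave room for differences in either direction that the counts cannot show.

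The genes whose pattern over the 12 samples was most like that of Ddx58 were Sorbs2, Bbs9, Pik3r1, Hacd4 and Abi3bp, with root mean square differences of 0.053, 0.069, 0.076, 0.079 and 0.082 in mean-centered log2 CPM. Among the other 9 genes studied, Ifih1 was the closest with 0.124, followed by Irf1 with 0.308, and Mavs was the farthest with 0.624. Sorbs2 went from 157 ± 3.34 CPM in control to 74.3 ± 2.84 with A1 and 85.3 ± 1.55 CPM with A1 + OVA (SD, n = 4 each).

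The other genes of the pathway were taken from lists by role that hold 143 genes without the 10 above, of which 100 were tested. With A1, 40 of them were lower and 31 higher, a share of 71.0% next to the background of 62.7%. With A1 + OVA, 35 were lower and 21 higher, a share of 56.0% next to 57.6%. The lower genes include Irf4, Il15 and Psmb9 in both comparisons with control and Xaf1 with A1. These genes reached the level of the filter mainly in control samples, so that their calls are no support for a direction. A1 + OVA and A1 differed in 15, of which 8 were lower and 7 higher with A1 + OVA, a share of 15.0% next to 12.9%. The count of 15 became 7 without A1 + OVA replicate 4 and 9 without A1 replicate 1 or without A1 replicate 3.

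Interferon genes were not detectable as such. Of the 21 interferon ligands, every one had at most 3 counts in all samples, and Ifnb1, the interferon first induced by IRF3, had 0 counts in 11 samples and 1 count in 1 A1 + OVA sample. Other RNA sensors moved in both directions, with 3 of 10 tested genes lower and 5 higher with A1 (median log2 fold change 0.12), and 4 lower and 4 higher with A1 + OVA (median 0.04). Over all tested genes, 31.1% were lower and 31.7% higher with A1, and 27.9% lower and 29.7% higher with A1 + OVA. The helicases Ddx21, Dhx15 and Dhx9, which serve ribosome synthesis, splicing and other RNA metabolism besides RNA sensing, rose with A1 by 0.69, 0.33 and 0.31 on the log2 scale. Ddx21 and Dhx15 also passed with A1 + OVA, at 0.56 and 0.22 on the log2 scale, and Dhx9 was at 0.10 (edgeR adjusted p = 0.0855).

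Sensor cofactors had 3 of 16 tested genes lower and 6 higher with A1 (median log2 fold change 0.01), beside 31.1% lower and 31.7% higher of all tested genes. Unc93b1, which carries TLR3 and other nucleic acid receptors to endosomes, fell from 3.05 ± 0.292 to 1.56 ± 0.293 CPM with A1 and had 2.23 ± 0.327 CPM with A1 + OVA (mean ± SD, n = 4 each), and the log2 fold changes were -0.96 and -0.45 (edgeR adjusted p = 5.84e-05 and 0.0172). Prkra, the activator of PKR that also binds RIG-I, fell by 0.55 on the log2 scale with A1 and was higher by 0.29 with A1 + OVA than with A1 (edgeR adjusted p = 0.00486). Trim65, a ubiquitin ligase of MDA5, rose by 0.52 with A1, and Tkfc, whose product restrains MDA5, fell by 0.42.

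Among adaptors and kinases, 4 of 18 tested genes were lower and 9 higher with A1 (median log2 fold change 0.12), and 3 lower and 6 higher with A1 + OVA (median 0.11). The shares over all tested genes were 31.1% lower and 31.7% higher with A1, and 27.9% lower and 29.7% higher with A1 + OVA. Ticam1, the adaptor of TLR3, had 26.3 ± 2.46 CPM in control and 26.4 ± 2.71 CPM with A1 (mean ± SD, n = 4 each), with a log2 fold change of 0.01 (edgeR adjusted p = 0.948). Tbk1 fell from 89.1 ± 1.92 to 80.7 ± 2.42 CPM (mean ± SD, n = 4 each), with a log2 fold change of -0.14 (edgeR adjusted p = 0.00353). The other kinase of the route, Ikbke, fell from 21.5 ± 2.28 to 15.5 ± 1.5 CPM with A1 (mean ± SD, n = 4 each), with a log2 fold change of -0.47 (edgeR adjusted p = 0.000162), and its value with A1 + OVA was -0.19 (edgeR adjusted p = 0.0703). Traf5, an adaptor that binds MAVS, Cgas, the cytosolic DNA sensor, and Fadd, which acts below RIPK1, rose with A1 by 0.69, 0.53 and 0.33 on the log2 scale.

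Regulators of MAVS were divided, with 4 of 13 tested genes lower and 4 higher with A1 (median log2 fold change -0.01), beside 31.1% lower and 31.7% higher of all tested genes. Tomm70a, the import receptor that docks MAVS to TBK1, rose from 285 ± 8.59 to 374 ± 13.8 CPM (mean ± SD, n = 4 each), with a log2 fold change of 0.40 (edgeR adjusted p = 2.45e-08). The ubiquitin ligases Smurf2 and March5 fell by 0.37 and 0.36 on the log2 scale. Nlrx1, a mitochondrial inhibitor of MAVS, had a log2 fold change of -0.56 with A1 (edgeR adjusted p = 0.0911) and -0.83 with A1 + OVA (edgeR adjusted p = 0.0173), at no more than 36 counts in a sample.

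Of the other IRFs and their cofactors, 7 were tested, with 2 lower and 3 higher with A1 (median log2 fold change -0.11), beside 31.1% lower and 31.7% higher of all tested genes. Irf4, a factor of lymphoid and myeloid cells, was low, with 1.20 ± 0.239 CPM in control and 0.541 ± 0.251 CPM with A1 (mean ± SD, n = 4 each). It reached the level of the filter in all 4 control samples and in 1 sample of each treated group. Irf4 was thus tested only because of the group where it was high. When Irf4 is set aside, 1 of the 6 genes left was lower and 3 were higher with A1. The list median was then 0.02, so that the negative sign above rests on Irf4. Irf8 and its partner Spi1 had 0 counts in all samples. The corepressors Irf2bp2 and Irf2bpl rose by 0.22 and 0.21, and the coactivator Ep300 fell by 0.26 on the log2 scale with A1.

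Interferon receptor signaling had 9 of 15 tested genes lower and 4 higher with A1 (median log2 fold change -0.29), and 6 lower and 4 higher with A1 + OVA (median -0.14). Over all tested genes, 31.1% were lower and 31.7% higher with A1, and 27.9% lower and 29.7% higher with A1 + OVA. Stat2, a partner of Irf9 in ISGF3, fell from 33.1 ± 3.20 to 19.2 ± 2.80 CPM with A1 and had 25.1 ± 3.52 CPM with A1 + OVA (mean ± SD, n = 4 each), and the log2 fold changes were -0.79 and -0.39 (edgeR adjusted p = 5.93e-07 and 0.00113), and the difference between the treatments, 0.39, passed the test (edgeR adjusted p = 0.0149). Jak1, a kinase of the receptor, fell from 690 ± 19.8 to 401 ± 6.31 CPM with A1 (mean ± SD, n = 4 each), with a log2 fold change of -0.78 (edgeR adjusted p = 2.1e-14), and by 0.77 with A1 + OVA. The receptor chains Ifnar1 and Ifnar2 changed less, with log2 fold changes of -0.13 (edgeR adjusted p = 0.00801) and -0.18 (edgeR adjusted p = 0.0152) with A1, and of -0.07 and -0.14 with A1 + OVA, which did not pass. Usp18, the inhibitor of the receptor, reached no more than 14 counts per library, with a log2 fold change of -0.90 with A1 (edgeR adjusted p = 0.0549). It reached the level of the filter in 3 control samples and in 1 sample of each treated group. Without Usp18 the median of the list with A1 was -0.24.

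Genes known as targets of type I interferon, without the sensors and IRFs already given, had 6 of 8 tested members lower and 0 higher with A1 (median log2 fold change -0.70), beside 31.1% of all tested genes lower. With A1 + OVA, 3 were lower and 0 higher (median -0.49), beside 27.9%, and 1 was higher than with A1. Ifit1, Ifit3, Oasl2 and Xaf1 had log2 fold changes of -1.10, -1.14, -0.87 and -1.04 with A1, all past the test, and of -0.62, -0.81, -0.49 and -0.44 with A1 + OVA, of which the first pair passed. Of the 8, Xaf1 and 1 other gene met the filter only with the help of control samples, and without them 5 of 6 were lower with A1 and 3 of 6 with A1 + OVA. Reads of Ifit1, Ifit3 and Oasl2 may be shared with close paralogs. Targets of IRF1 had 9 of 13 tested members lower and 0 higher in each comparison with control, with medians of -0.97 and -0.71, beside 31.1% and 27.9% of all tested genes lower. Of these 13, 4 met the filter only with the help of control samples, Il15 and Psmb9 among them, and without the 4 the count was 7 of 9 lower in each comparison. Casp1, the inflammatory caspase, fell from 37.6 ± 0.553 to 15.0 ± 0.874 CPM with A1 and had 20.9 ± 1.96 CPM with A1 + OVA (mean ± SD, n = 4 each), and the log2 fold changes were -1.32 and -0.85 (edgeR adjusted p = 2.49e-13 and 1.56e-10). Gbp2, an interferon-induced GTPase, fell from 7.04 ± 0.334 to 2.99 ± 0.414 CPM with A1 and had 4.17 ± 0.267 CPM with A1 + OVA (SD, n = 4 each). Both were higher with A1 + OVA than with A1, each by 0.48 on the log2 scale (edgeR adjusted p = 0.000167 for Casp1 and 0.0199 for Gbp2). Il15, a cytokine of natural killer and memory T cells, went from 1.16 ± 0.190 CPM in control to 0.278 ± 0.0631 with A1 and 0.0994 ± 0.0411 CPM with A1 + OVA (SD, n = 4 each), where its counts are close to the floor of 3. The immunoproteasome subunit Psmb9, with at most 18 counts in a sample, had 0.907 ± 0.147, 0.224 ± 0.182 and 0.503 ± 0.200 CPM in the same order (SD, n = 4 each).

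**Figure D4:**
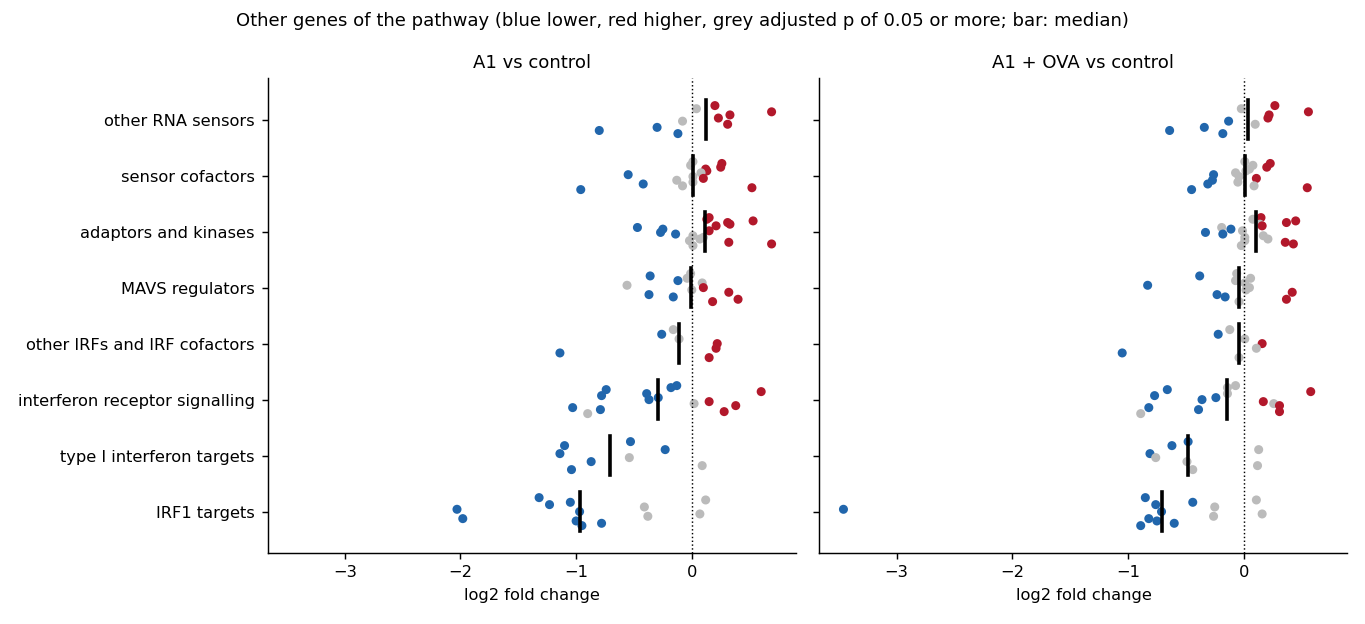
Log2 fold changes against control (horizontal axis) of each tested gene of 8 lists of pathway genes, for A1 on the left and A1 + OVA on the right. Each point is a gene, blue points passed as lower, red points as higher and grey points did not pass, and the black bars are list medians, which lie at -0.97 and -0.71 for IRF1 targets. The farthest point to the left is Il15, which had too few counts in treated samples for its fold change to be read.

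Each sample held between 13702348 and 16881995 counts, with lower totals in all A1 samples than in the other groups, and the 10 genes had 4 to 792 counts in a sample. Markers of MSCs had summed levels of 8220 to 9110 CPM in control, 7600 to 8320 with A1 and 7800 to 8270 CPM with A1 + OVA, with Col1a1 and Col1a2 at 2980 CPM or more in every sample. Col1a1 and Col1a2, at means of 3330 and 4270 CPM in control, made up most of these sums, which say little on the other markers. Of 9 tested MSC markers, 4 were lower and 1 higher with A1, beside 31.1% lower and 31.7% higher of all tested genes. Cd44 rose by 1.39, and Pdgfra and Vcam1 fell by 0.99 and 0.95 on the log2 scale with A1. Thy1 (CD90) was nearly absent, with at most 3 counts in 11 samples and 17 in control replicate 2, and Nt5e (CD73) had at most 14 counts in a sample, although both proteins are markers by which the study defined its cells. Among 11 markers of macrophages and leukocytes, Tyrobp and Cd52 had 0 counts in all samples, Itgam at most 1 and Adgre1 at most 2, and the summed level of 9.59 to 10.6 CPM in control, 12.2 to 15.1 with A1 and 10.8 to 13.3 CPM with A1 + OVA came mostly from Cd14, with 7, 5 and 5 of the 11 markers over 3 counts in some sample of these groups. Of 7 dendritic cell markers, 6 had at most 3 counts in every sample and Zbtb46 made up the sum of 7.40 to 9.53 CPM. The 5 endothelial markers summed to at most 0.916 CPM. Mitochondrial transcripts took 3.35% to 3.65% of the counts in control, 2.81% to 3.29% with A1 and 2.77% to 3.06% with A1 + OVA, and the part of this shift, of the totals and of the marker levels in the values above was not tested.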

How the data were processed

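The authors prepared strand-specific libraries from poly(A) RNA, aligned the paired-end reads to GRCm38 (Ensembl release 102) with STAR (2.7), assigned them to genes by featureCounts (2.0) and deposited raw counts, without normalization or filter. From these counts, protein-coding genes (GENCODE M21, which holds 99.53% of the identifiers) that passed edgeR's filterByExpr were normalized by TMM and tested in 1 fit of all 12 samples by the quasi-likelihood test of edgeR (version 4.0.16 under R 4.3.3). P-values are two-sided and were adjusted over 11314 genes by the Benjamini-Hochberg method, with a threshold of 0.05. The standard error is the absolute log2 fold change divided by the square root of F, and levels per length use all merged exons of a gene. Groups were taken from the sample titles.

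The 10 genes, the lists and the tests were chosen with earlier results of these data known. All 10 genes are named, and of each list at most the 4 tested genes with the largest absolute change with A1, besides Stat2, Ticam1, Tbk1, Ikbke, Ifnb1, Ifnar1 and Ifnar2. Irf8, Spi1 and the cell markers without a test were named after their values were seen. Several genes of the lists are not reported here by name. Mx2 is no protein-coding gene in the annotation and was left out. Genes most like Ddx58 were ranked with a prior count of 2 in log2 CPM. At this depth a count of 3 was taken as the floor. The variance between replicates of a group was 1.925 to 6.874 times that of sampling, and no library is a copy of another. Alternatives were DESeq2 (1.42.0), the study's tool, as well as its size factors, upper-quartile scaling, other filters, all genes, only the groups compared, the replicate number as a block and each sample left out.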

Additional observations from a re-analysis of the deposited data

How the results depend on the processing

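In 596 refits of single genes, 569 kept the direction and the side of the threshold, 14 lost a call, all for Irf3 with A1 + OVA, 4 gained one, and 9 changed sign without a call before or after. With single samples left out, sign changes came for Tlr3 with A1 + OVA against control (-0.11 to 0.0152), and between the treatments for Dhx58 (-0.0564 to 0.39) and Irf7 (-0.21 to 0.34), and Irf7 was at 0.0019 there with upper-quartile scaling. Gained calls were Dhx58 (-0.71) and Tlr3 (-0.28) with A1 without A1 replicate 4, Tlr3 with upper-quartile scaling (-0.25) and Irf9 with A1 + OVA without A1 + OVA replicate 3 (-0.26). A minimum of 10 counts in every sample removed Irf7, which also failed the filter when only both treated groups were used, so that no value exists there. Requiring a log2 fold change of at least 0.5 left 3 of 7 genes with A1, 3 of 7 with A1 + OVA and 0 of 1 between the treatments. By the adjusted p-value alone and with single samples left out, the counts of the 10 genes ranged from 7 to 9, from 6 to 7 and from 1 to 1. Those of the pathway lists ranged from 66 to 72, from 52 to 58 and from 7 to 19. The lowest of the last were 7 without A1 + OVA replicate 4 and 9 without A1 replicate 1 or 3, against 15. With the replicate number as a block, 7, 7 and 1 of the 10 genes passed and no call changed among them. Samples of the same number had correlations of their deviations between -0.132 and 0.156 over 12 pairs (mean 0.0215). Replicate 4 had the largest share of protein-coding counts in each group, with 98.17% in control, 98.53% with A1 and 98.29% with A1 + OVA. Whether samples of the same number share a mouse, culture or preparation is not stated and was not tested. Low counts limit Irf7 and Dhx58 most.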

Other observations

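Genes that overlap the sensors and IRFs or start beside them were not part of any list. The long noncoding RNA Gm16675 starts 217 bases from Irf2 on the opposite strand and had 1.58 ± 0.231 CPM in control, 1.17 ± 0.196 with A1 and 1.41 ± 0.184 CPM with A1 + OVA (SD, n = 4 each). Bcl2l12, which shares 1065 bases with Irf3 on the opposite strand, had log2 fold changes of 0.01 with A1 (edgeR adjusted p = 0.945) and 0.15 with A1 + OVA (edgeR adjusted p = 0.232). Phrf1 overlaps 45 bases of Irf7 on the opposite strand and had 62.8 ± 3.36, 65.8 ± 2.26 and 63.8 ± 4.59 CPM in control, A1 and A1 + OVA samples (SD, n = 4 each), while Irf7 fell. Rnf31, on the same strand as Irf9, had log2 fold changes of -0.03 with A1 (edgeR adjusted p = 0.783) and 0.21 with A1 + OVA (edgeR adjusted p = 0.0586). Antisense genes annotated within Dhx58, Tlr3 and Irf2 had at most 2 counts in a sample.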
